A study of Mus musculus with 16 samples.

Results

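The genes of sterol and fatty acid synthesis that the SREBP transcription factors control were followed in mouse bone marrow-derived macrophages, which develop when marrow is cultured with medium that L929 fibroblasts have conditioned. The set held 34 genes, chosen by symbol and found among 54532 gene identifiers: 5 regulators, 20 genes of the sterol arm and 9 genes of the fatty acid arm. All 34 symbols matched an identifier, and 33 passed the filter on low values. The exception was Fdps, the farnesyl diphosphate synthase, which stood between 0.0433 and 0.387 FPKM (fragments per kilobase of exon, relative to sequencing depth). It shares 1124 of its 4208 exon bases with Gm43738 on the same strand, and how reads there were counted is not stated.

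The 16 libraries came from FVB/N mice and formed 4 groups of 4. Macrophages labelled Foxo3 knockout (KO) received 100 nM dexamethasone, a synthetic glucocorticoid, or the DMSO vehicle, for 24 h before RNA isolation. Wild-type (WT) macrophages received the same treatments. Replicates are only numbered in the labels, with no word on separate mice or cultures, so the spread that p-values refer to may be technical.

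SREBP proteins are made as membrane precursors of the endoplasmic reticulum. The escort protein SCAP carries them to the Golgi, where proteases free the active fragment, and INSIG proteins hold the complex back when sterols are plentiful. SREBP2 mainly drives genes of cholesterol synthesis and SREBP1 mainly genes of fatty acid synthesis. In macrophages the pathway supplies membrane lipid and is coupled to the handling of cholesterol taken up from other cells.

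Promoters were examined because many members moved together. RefSeq promoters on GRCm38.p6 were at hand for 27 of the 34 members and covered 250 bases before each annotated start. The sequences below show the last 200 of those bases for 6 members, 5′ to 3′ on the strand of the gene. Hmgcs1 and Insig1 hold the sterol and E-box motifs, Cyp51 and Mvd stand for the sterol enzymes, and Fasn and Elovl6 for the fatty acid arm. The windows are chr13:119690151-119690350 (plus strand) for Hmgcs1, chr5:28071212-28071411 (plus strand) for Insig1 and chr5:4104698-4104897 (minus strand) for Cyp51. Those of the others are chr8:122443423-122443622 (minus strand) for Mvd, chr11:120824548-120824747 (minus strand) for Fasn and chr3:129532186-129532385 (plus strand) for Elovl6. Capitals mark a match to TCACNCCAC (one form of the sterol regulatory element), CACGTG (E-box) or CCAAT (the box bound by NF-Y), read on either strand, so that ATTGG is a CCAAT on the other strand.
Hmgcs1: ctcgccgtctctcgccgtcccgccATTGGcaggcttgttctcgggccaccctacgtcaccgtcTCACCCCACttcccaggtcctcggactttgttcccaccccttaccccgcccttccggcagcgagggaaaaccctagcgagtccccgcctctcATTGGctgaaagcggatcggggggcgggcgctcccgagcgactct
Insig1: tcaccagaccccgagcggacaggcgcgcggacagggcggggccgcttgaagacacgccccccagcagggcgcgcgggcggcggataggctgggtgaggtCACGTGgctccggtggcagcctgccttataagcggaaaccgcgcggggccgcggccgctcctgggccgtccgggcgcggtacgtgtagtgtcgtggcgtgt
Cyp51: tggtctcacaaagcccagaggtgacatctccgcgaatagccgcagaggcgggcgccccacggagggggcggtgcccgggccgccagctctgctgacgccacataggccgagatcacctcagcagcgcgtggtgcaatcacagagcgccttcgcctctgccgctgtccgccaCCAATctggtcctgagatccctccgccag
Mvd: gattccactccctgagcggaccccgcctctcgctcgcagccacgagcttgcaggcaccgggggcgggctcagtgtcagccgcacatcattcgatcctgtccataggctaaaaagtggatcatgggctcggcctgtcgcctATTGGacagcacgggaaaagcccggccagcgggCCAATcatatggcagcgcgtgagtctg
Fasn: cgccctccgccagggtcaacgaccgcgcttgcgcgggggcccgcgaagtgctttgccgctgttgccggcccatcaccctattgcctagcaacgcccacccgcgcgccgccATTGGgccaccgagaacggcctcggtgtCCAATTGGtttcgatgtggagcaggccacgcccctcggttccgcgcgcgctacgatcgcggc
Elovl6: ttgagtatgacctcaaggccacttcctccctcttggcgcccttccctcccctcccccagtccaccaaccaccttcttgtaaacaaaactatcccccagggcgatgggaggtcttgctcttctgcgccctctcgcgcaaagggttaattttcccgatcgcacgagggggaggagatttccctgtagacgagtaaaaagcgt
The CCAAT box was found in 20 of the 27 member promoters (74.1%), against 34.5% of all 27025 promoters in the table. It stood in 14 of 16 sterol arm promoters (87.5%), in 4 of 5 regulator promoters (80%) and in 2 of 6 fatty acid arm promoters (33.3%). The Fasn window carries a run in which a CCAAT and an ATTGG overlap, and the Elovl6 window holds none of the 3 motifs. TCACNCCAC was found in Hmgcs1 alone among the members (3.7%), at positions -137 to -129 from the annotated start, against 1.03% of all promoters. The E-box was found in 3 member promoters (11.1%), those of Insig1, Hsd17b7 and Sc5d, against 6.04% of all promoters. A match describes letters in a window and not a bound site.

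Depth was similar between libraries, with 16886745 to 20584574 reads on genes recovered from the FPKM values, and a gene of 2 kb at 1 FPKM rested on 32.9 to 39.7 reads. Foxo3 itself averaged 24.5 ± 1.44 and 23.8 ± 0.635 FPKM in KO dexamethasone and KO vehicle libraries, and 23.2 ± 1.07 and 24.7 ± 1.72 FPKM in WT dexamethasone and WT vehicle libraries (SD, n = 4 each). Its level was not lower in libraries labelled KO, and the labels do not say which part of the gene was removed, so this level does not check the label. The 10 macrophage markers summed to between 9693 and 15751 FPKM in every library. Lyz2, at 7764 to 12754 FPKM, made up most of each sum. Single markers differed in evenness, with Csf1r at 488 to 831 FPKM and Adgre1 at 210 to 1503 FPKM. Stromal RNA was uneven. Col1a1, a collagen of fibroblasts, stood at 1.18 to 25.5 FPKM in KO dexamethasone libraries and at 0.395 to 4.76 FPKM in KO vehicle libraries 1 to 3, but at 95.8 FPKM in KO vehicle library 4. In WT it stood at 159 to 355.5 FPKM in dexamethasone libraries 1 to 3 and 19.1 FPKM in library 4, and at 124 to 174 FPKM in vehicle libraries except for 6.77 FPKM in library 3. Those 3 libraries lay apart from their groups, and results are given with and without them where they matter. In bulk RNA, fewer cells of a type and less RNA per cell cannot be told apart. Of the genes tested, called genes split into 1753 higher and 2809 lower with dexamethasone in KO and 393 higher and 152 lower in KO vehicle against WT vehicle. Quantile normalization gave 2059 and 1968, and 270 and 168, for these splits.

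**Figure D1:**
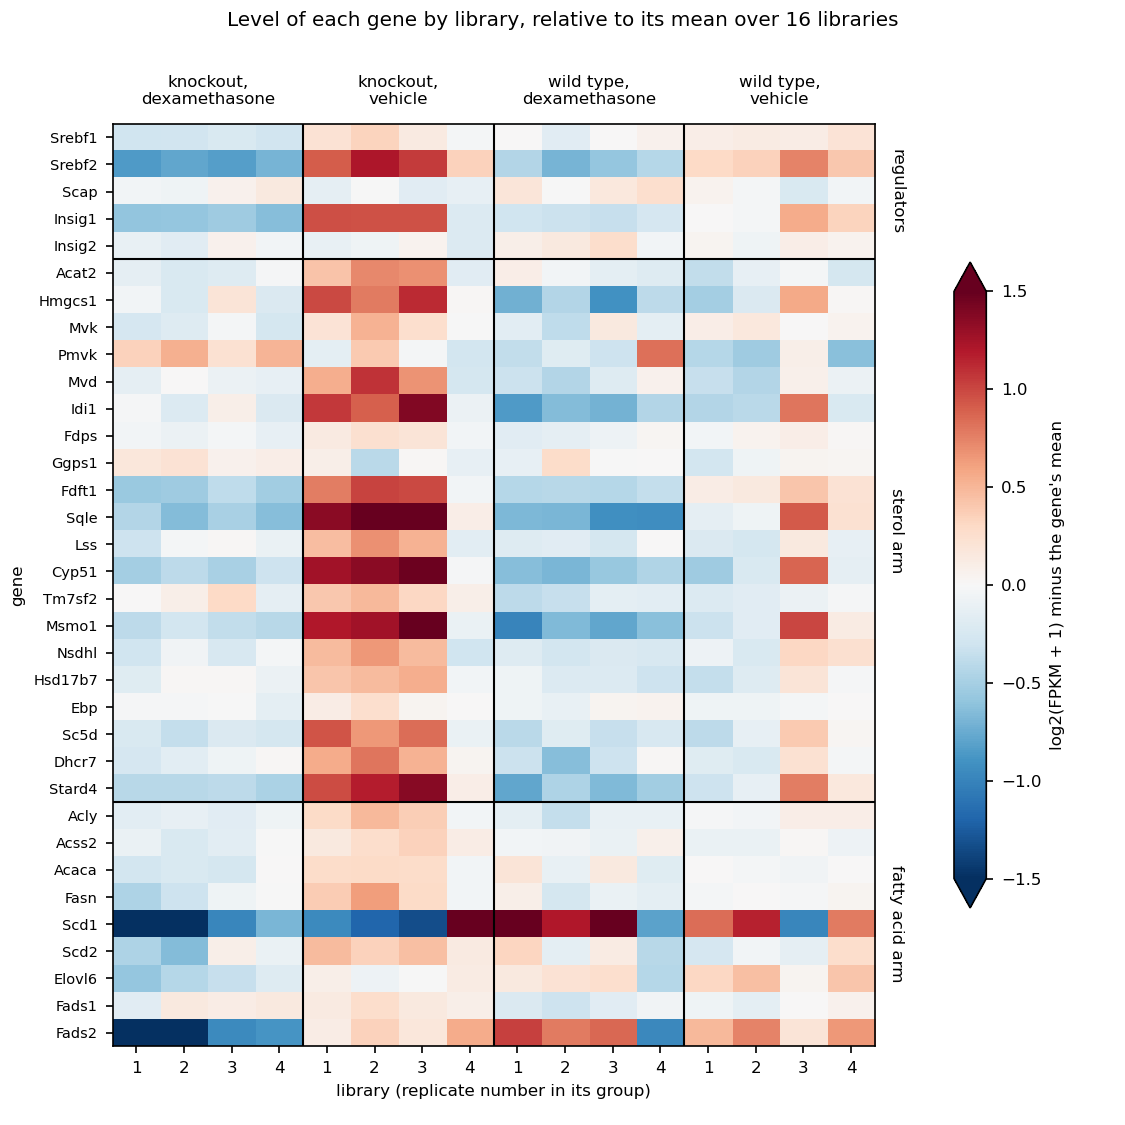
Level of each of the 34 genes (rows) in each of the 16 libraries (columns, by group and replicate number), as log2(FPKM + 1) minus the gene's mean over all libraries; colours saturate at the ends of the scale. Most sterol genes are highest in KO vehicle libraries 1 to 3, KO vehicle library 4 lies near the WT libraries for these genes, and WT vehicle library 3 stands above the other WT vehicle libraries.

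With dexamethasone, most members were lower in KO macrophages. In KO dexamethasone against KO vehicle, 25 of 33 members were lower and 0 higher by limma with Benjamini-Hochberg adjustment over 11654 genes, against 24.1% lower and 15% higher of all genes tested. At an unadjusted p under 0.05 these counts were 27 lower and 0 higher, where 5507 of 11654 genes passed in either direction. On the recovered reads, limma voom called 23 lower and 1 higher, against 20.2% and 19.7% of all genes. The lower members were 15 of 19 tested sterol genes, 7 of 9 fatty acid genes and 3 of 5 regulators. Calls of 18 of the 25 held whichever library was left out.

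In WT dexamethasone against WT vehicle, 5 members were lower and 1 was higher, against 18.2% lower and 11.9% higher of all genes. The lower ones were Srebf2, Fdft1, Sqle, Msmo1 and Stard4, and the higher one was Scap. Srebf2, Fdft1 and Sqle kept their calls whichever library was left out. Scap lost its call in 9 of the 16 such fits, Msmo1 in 5 and Stard4 in 4. None of the 9 fatty acid genes passed the limma test in WT. At an unadjusted p under 0.05, 1 was lower, where 4672 of 11654 genes passed in either direction. Voom called 0 of the 9, against 15.7% lower and 14.8% higher of all genes. Without the 3 libraries apart in Col1a1, 11 members were lower and 1 higher in WT, against 20.4% and 13.1% of all genes.

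The median log2 difference with dexamethasone in KO was -0.59 for the sterol arm and -0.42 for the fatty acid arm, against -0.05 for all genes tested. In WT these medians were -0.26, -0.09 and -0.02. The difference between the KO and WT responses was below 0 for 30 of 33 members, as for 6264 of 11654 genes tested, but none of the members passed the limma test of that difference, where 0.129% of all genes did. At an unadjusted p under 0.05 it was lower for 10 members, where 1359 of 11654 genes passed in either direction. Voom called 0 members, against 0.0258% higher and 0.0172% lower of all genes. Without the 3 libraries apart, 3.94% of all genes were lower and 2.28% higher in that test. There 15 members passed, all lower, among them Insig1 at -1.12 ± 0.1097 (log2, SE, adjusted p = 0.000259) and Cyp51 at -1.45 ± 0.1358 (adjusted p = 0.000226). In that subset every KO library lay at or under 25.5 FPKM of Col1a1 and every WT library at or above 124 FPKM, so genotype and Col1a1 cannot be told apart there.

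**Figure D2:**
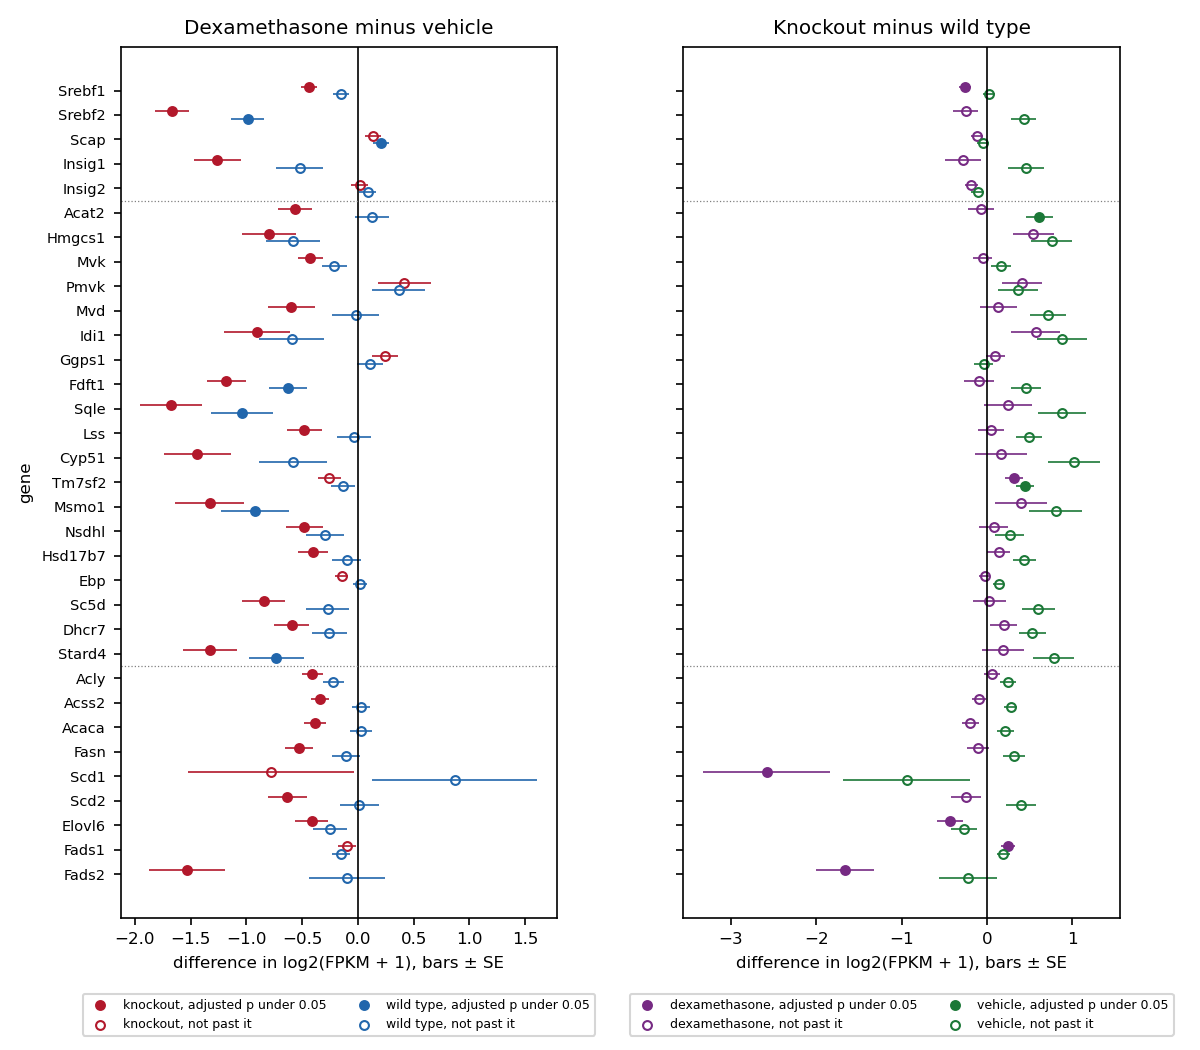
Difference in log2(FPKM + 1) with its standard error for each of the 33 tested members (rows): dexamethasone minus vehicle in KO and WT on the left, and KO minus WT with dexamethasone and with vehicle on the right; filled points passed an adjusted p of 0.05 in limma. With dexamethasone 25 members are lower in KO and 5 in WT, and Scd1 and Fads2 lie farthest below 0 in KO against WT with dexamethasone.

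Among the regulators, Srebf2, which encodes SREBP2, moved most. It had 11.2, 11.8, 11.4 and 12.5 FPKM in KO dexamethasone libraries, against 40.2, 49.9, 44.6 and 26.9 FPKM in KO vehicle libraries. WT libraries held Srebf2 at 15.2, 12.5, 13.7 and 15.3 FPKM with dexamethasone, against 26.1, 27, 35.7 and 28 FPKM with vehicle. All 8 dexamethasone libraries lay below all 8 vehicle libraries. Srebf2 fell by 1.67 ± 0.149 on the log2 scale in KO (limma adjusted p = 9.82e-07) and by 0.99 ± 0.149 in WT (adjusted p = 0.000183).

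Insig1 encodes a sterol sensor partner that retains SCAP and is itself an SREBP target. It had 8.38, 8.47, 8.73 and 8.06 FPKM in KO dexamethasone libraries, against 26.7, 26.5, 26.4 and 11.3 FPKM in KO vehicle libraries. WT libraries held Insig1 at 10.5, 10.3, 10.1 and 10.9 FPKM with dexamethasone, against 13.2, 12.9, 19.8 and 16.8 FPKM with vehicle. The groups did not overlap within either genotype, and KO vehicle library 4 stood well below the other 3. Insig1 fell by 1.26 ± 0.211 in KO (log2, limma adjusted p = 0.000299), while the WT difference of -0.52 ± 0.211 did not pass (adjusted p = 0.0757).

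Srebf1, which encodes both SREBP1 isoforms, changed less. It had 16.2, 16.4, 17.1 and 16.4 FPKM in KO dexamethasone libraries, against 23.6, 25.7, 22.2 and 19.7 FPKM in KO vehicle libraries. WT libraries held Srebf1 at 20.3, 17.9, 20.3 and 21.2 FPKM with dexamethasone, against 21.7, 22.1, 21.8 and 23.4 FPKM with vehicle. KO dexamethasone libraries lay below those of every other group. Srebf1 fell by 0.44 ± 0.0715 with dexamethasone in KO (limma adjusted p = 0.000261), and the WT difference was -0.15 ± 0.0715 (adjusted p = 0.126). Values per gene do not separate both isoforms.

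Scap, the escort, had 10.6, 10.4, 11.5 and 12.2 FPKM in KO dexamethasone libraries, against 9.84, 10.9, 9.59 and 10 FPKM in KO vehicle libraries. WT libraries held Scap at 12.5, 10.9, 12.3 and 13.2 FPKM with dexamethasone, against 11.4, 10.7, 9.21 and 10.6 FPKM with vehicle. The groups overlapped in both genotypes. Scap rose by 0.21 ± 0.0725 on the log2 scale in WT (limma adjusted p = 0.043), and its difference in KO was 0.14 ± 0.0725 (adjusted p = 0.154). The gene shares 985 of its 7443 exon bases with an antisense gene.

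Insig2, a relative of Insig1 with the same retaining role, had 7.32, 7.01, 8.38 and 7.74 FPKM in KO dexamethasone libraries, against 7.35, 7.63, 8.34 and 6.78 FPKM in KO vehicle libraries. WT libraries held Insig2 at 8.59, 8.97, 9.84 and 7.73 FPKM with dexamethasone, against 8.25, 7.57, 8.6 and 8.29 FPKM with vehicle. The groups overlapped, and Insig2 passed the limma test in none of the 4 comparisons between groups, with the lowest adjusted p of 0.0869 in KO against WT with dexamethasone.

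**Figure D3:**
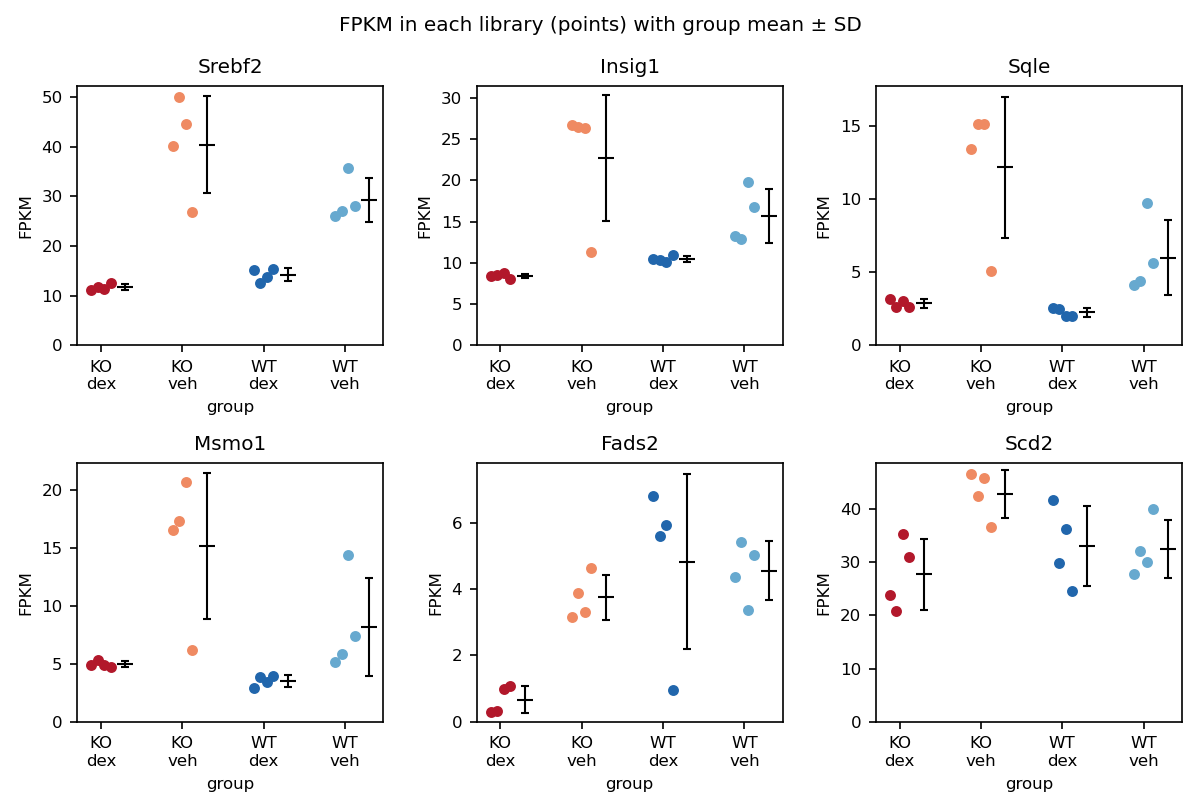
FPKM of 6 members in each library (points, 4 per group) with the group mean ± SD beside them. Srebf2 is lower in all dexamethasone libraries than in any vehicle library, Insig1, Sqle and Msmo1 are highest in 3 of the 4 KO vehicle libraries, and Fads2 is lowest in KO dexamethasone libraries and in WT dexamethasone library 4.

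In the sterol arm the steepest members lay both early and late in the pathway. Hmgcs1, the cytosolic synthase that makes HMG-CoA, had 7.82, 6.78, 9.36 and 6.83 FPKM in KO dexamethasone libraries, against 17.1, 14.6, 18.7 and 8.17 FPKM in KO vehicle libraries. WT libraries held Hmgcs1 at 4.5, 5.69, 3.85 and 5.95 FPKM with dexamethasone, against 5.39, 6.83, 12.5 and 8.21 FPKM with vehicle. The groups overlapped in both genotypes, and KO vehicle library 4 was low and WT vehicle library 3 high within its group. Hmgcs1 fell by 0.80 ± 0.241 in KO (log2, limma adjusted p = 0.0168), and the WT difference was -0.58 ± 0.241 (adjusted p = 0.0837).

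Idi1 isomerises isopentenyl diphosphate. It had 1.45, 1.15, 1.65 and 1.14 FPKM in KO dexamethasone libraries, against 4.17, 3.62, 5.52 and 1.34 FPKM in KO vehicle libraries. WT libraries held Idi1 at 0.381, 0.584, 0.521 and 0.839 FPKM with dexamethasone, against 0.836, 0.878, 3.34 and 1.13 FPKM with vehicle. WT vehicle library 3 stood apart on the high side and KO vehicle library 4 on the low side. Idi1 fell by 0.90 ± 0.293 in KO (log2, limma adjusted p = 0.0238), and in WT it differed by -0.59 ± 0.293 (adjusted p = 0.145).

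Fdft1, the squalene synthase, had 1.31, 1.36, 1.61 and 1.37 FPKM in KO dexamethasone libraries, against 4.78, 5.9, 5.76 and 2.31 FPKM in KO vehicle libraries. WT libraries held Fdft1 at 1.54, 1.56, 1.53 and 1.66 FPKM with dexamethasone, against 2.68, 2.76, 3.53 and 2.96 FPKM with vehicle. Every dexamethasone library lay below every vehicle library. Fdft1 fell by 1.18 ± 0.173 in KO (log2, limma adjusted p = 0.000102) and by 0.63 ± 0.173 in WT (adjusted p = 0.0136). It shares 774 of its 4227 exon bases with Ctsb on the other strand, and whether the counting used strand is not stated.

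Sqle, the squalene epoxidase, had 3.17, 2.61, 3.03 and 2.62 FPKM in KO dexamethasone libraries, against 13.4, 15.1, 15.1 and 5.04 FPKM in KO vehicle libraries. WT libraries held Sqle at 2.54, 2.5, 1.98 and 1.97 FPKM with dexamethasone, against 4.15, 4.41, 9.7 and 5.64 FPKM with vehicle. No dexamethasone library reached a vehicle library. Sqle fell by 1.67 ± 0.278 in KO (log2, limma adjusted p = 0.000285) and by 1.04 ± 0.278 in WT (adjusted p = 0.011).

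Cyp51, the lanosterol demethylase, had 4.18, 4.62, 4.28 and 4.97 FPKM in KO dexamethasone libraries, against 16.7, 17.8, 19.5 and 6.27 FPKM in KO vehicle libraries. WT libraries held Cyp51 at 3.73, 3.57, 3.97 and 4.39 FPKM with dexamethasone, against 4.09, 5.3, 12.5 and 5.7 FPKM with vehicle. KO groups did not overlap, whereas WT groups did. Cyp51 fell by 1.44 ± 0.303 in KO (log2, limma adjusted p = 0.00179), and the WT difference was -0.58 ± 0.303 (adjusted p = 0.17).

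Msmo1, the sterol methyl oxidase, had 4.86, 5.31, 4.92 and 4.74 FPKM in KO dexamethasone libraries, against 16.6, 17.3, 20.7 and 6.17 FPKM in KO vehicle libraries. WT libraries held Msmo1 at 2.87, 3.86, 3.45 and 3.97 FPKM with dexamethasone, against 5.12, 5.83, 14.4 and 7.37 FPKM with vehicle. The groups did not overlap in either genotype. Msmo1 fell by 1.33 ± 0.307 in KO (log2, limma adjusted p = 0.00338) and by 0.92 ± 0.307 in WT (adjusted p = 0.0345).

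Sc5d, the lathosterol desaturase, had 2.78, 2.45, 2.81 and 2.68 FPKM in KO dexamethasone libraries, against 7.47, 5.92, 6.9 and 3.12 FPKM in KO vehicle libraries. WT libraries held Sc5d at 2.34, 2.89, 2.47 and 2.75 FPKM with dexamethasone, against 2.36, 3.05, 4.79 and 3.52 FPKM with vehicle. Overlap was seen in WT and not in KO. Sc5d fell by 0.84 ± 0.193 in KO (log2, limma adjusted p = 0.00311), and the WT difference was -0.27 ± 0.193 (adjusted p = 0.323).

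Stard4 encodes a protein that moves cholesterol between membranes. It had 2.53, 2.53, 2.59 and 2.39 FPKM in KO dexamethasone libraries, against 8.28, 9.59, 11.1 and 4.03 FPKM in KO vehicle libraries. WT libraries held Stard4 at 1.73, 2.41, 1.96 and 2.27 FPKM with dexamethasone, against 2.8, 3.3, 7.01 and 4.24 FPKM with vehicle. The groups did not overlap in either genotype. Stard4 fell by 1.33 ± 0.243 in KO (log2, limma adjusted p = 0.000637) and by 0.73 ± 0.243 in WT (adjusted p = 0.0344).

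The other sterol genes moved less. Acat2, Mvk, Mvd, Lss, Nsdhl, Hsd17b7 and Dhcr7 passed the limma test in KO, with log2 differences between -0.60 (Mvd) and -0.41 (Hsd17b7). None of these 7 passed it in WT. Tm7sf2, a sterol reductase, and Ebp, a sterol isomerase, passed in neither genotype. Ebp was the most even of the sterol genes, at 20.2 to 22.4 FPKM in KO dexamethasone libraries, 22.5 to 27 FPKM in KO vehicle libraries, 20.8 to 23.4 FPKM in WT dexamethasone libraries and 21.4 to 22.6 FPKM in WT vehicle libraries. Pmvk, the phosphomevalonate kinase, and Ggps1, the geranylgeranyl diphosphate synthase, had positive differences in both genotypes, of 0.42 and 0.24 in KO and 0.36 and 0.11 in WT, and none passed. Proliferation markers moved alongside: 3 of 6 were lower with dexamethasone in KO and 3 of 6 in WT, and their summed level ran from 58.5 to 81.8 FPKM in KO dexamethasone libraries and 107 to 211 FPKM in KO vehicle libraries. In WT the sums were 52.4 to 86.1 FPKM with dexamethasone and 125 to 260 FPKM with vehicle. Of 10 macrophage markers, 7 were lower and 2 higher with dexamethasone in KO, and 8 were lower and 1 higher in WT. Their part in the result was not tested.

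In the fatty acid arm the log2 differences with dexamethasone lay between -1.54 and -0.10 in KO and between -0.25 and 0.87 in WT. Fasn, the fatty acid synthase, had 7.89, 8.92, 10.7 and 11.2 FPKM in KO dexamethasone libraries, against 15, 18, 14 and 10.9 FPKM in KO vehicle libraries. WT libraries held Fasn at 12, 9.22, 10.4 and 10.1 FPKM with dexamethasone, against 11, 11.3, 11.1 and 11.6 FPKM with vehicle. KO vehicle library 4 fell inside the range of the KO dexamethasone libraries, and the WT groups overlapped. Fasn fell by 0.53 ± 0.127 in KO (log2, limma adjusted p = 0.00453), and the WT difference was -0.10 ± 0.127 (adjusted p = 0.578).

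Fads2 encodes the delta-6 desaturase of polyunsaturated fatty acids. It had 0.303, 0.311, 0.975 and 1.07 FPKM in KO dexamethasone libraries, against 3.16, 3.88, 3.32 and 4.63 FPKM in KO vehicle libraries. WT libraries held Fads2 at 6.81, 5.6, 5.95 and 0.956 FPKM with dexamethasone, against 4.37, 5.41, 3.38 and 5.04 FPKM with vehicle. WT dexamethasone library 4 lay at the KO dexamethasone level, and the other 3 lay above all WT vehicle libraries. Fads2 fell by 1.54 ± 0.341 in KO (log2, limma adjusted p = 0.00258), and the WT difference was -0.09 ± 0.341 (adjusted p = 0.867).

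Scd1 and Scd2 encode stearoyl-CoA desaturases, which make monounsaturated fatty acids. Scd1 had 0.39, 0.194, 1.12 and 1.6 FPKM in KO dexamethasone libraries, against 1.16, 0.836, 0.667 and 11 FPKM in KO vehicle libraries. WT libraries held Scd1 at 21.8, 8.68, 21.2 and 1.41 FPKM with dexamethasone, against 6.49, 8.33, 1.13 and 6.19 FPKM with vehicle. The 3 libraries apart in Col1a1 were also apart here, KO vehicle library 4 high and the WT libraries low. Scd1 passed the test of dexamethasone in neither genotype, with -0.78 ± 0.744 in KO (log2, limma adjusted p = 0.443) and 0.87 ± 0.744 in WT (adjusted p = 0.416). Without those 3 libraries it rose by 1.10 ± 0.33 in WT (adjusted p = 0.0226).

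Scd2 had 23.8, 20.8, 35.3 and 30.9 FPKM in KO dexamethasone libraries, against 46.6, 42.4, 45.9 and 36.6 FPKM in KO vehicle libraries. WT libraries held Scd2 at 41.7, 29.8, 36.2 and 24.6 FPKM with dexamethasone, against 27.7, 32.1, 30.1 and 40.1 FPKM with vehicle. KO groups did not overlap and WT groups did. Scd2 fell by 0.63 ± 0.176 in KO (log2, limma adjusted p = 0.0104), and the WT difference was 0.01 ± 0.176 (adjusted p = 0.969). Scd1 and Scd2 transcripts are 95.51% identical over 623 bases, where reads could be split between them.

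Elovl6, which lengthens palmitate, was low. It had 0.204, 0.341, 0.416 and 0.579 FPKM in KO dexamethasone libraries, against 0.912, 0.704, 0.788 and 0.966 FPKM in KO vehicle libraries. WT libraries held Elovl6 at 1, 1.1, 1.15 and 0.341 FPKM with dexamethasone, against 1.23, 1.47, 0.846 and 1.4 FPKM with vehicle. KO groups did not overlap, and WT dexamethasone library 4 fell in the KO dexamethasone range. Elovl6 fell by 0.42 ± 0.151 in KO (log2, limma adjusted p = 0.0407), a call that was lost in 8 of the 16 fits that left out a library, and the WT difference was -0.25 ± 0.151 (adjusted p = 0.236). At these levels the log2(FPKM + 1) scale understates a change.

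Of the other fatty acid genes, Acly, Acss2 and Acaca, which supply and carboxylate acetyl-CoA, were lower with dexamethasone in KO by 0.41, 0.34 and 0.39 on the log2 scale, and none of the 3 passed the limma test in WT. Acaca has a near-identical copy, Gm5182, at 99.2% over 6118 bases. Fads1, the delta-5 desaturase, passed in neither genotype. It had the highest group means in the set in FPKM, a scale per exon length, at 46.8 to 58.5 FPKM in KO dexamethasone libraries, 56.1 to 63.5 FPKM in KO vehicle libraries, 42.4 to 50.9 FPKM in WT dexamethasone libraries and 47.6 to 55.2 FPKM in WT vehicle libraries.

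Genotype was compared within each treatment. In KO vehicle against WT vehicle 2 members were higher, Acat2 and Tm7sf2, and 0 lower by limma, against 3.37% higher and 1.3% lower of all genes. At an unadjusted p under 0.05 there were 23 higher and 0 lower, where 2531 of 11654 genes passed in either direction. Voom called 2 higher and 0 lower, against 2.41% and 1.61% of all genes. These were 1 sterol gene and 1 fatty acid gene, so not the same 2 as by limma. By limma Acat2, an acetyl-CoA thiolase, rose by 0.62 ± 0.155 (log2, adjusted p = 0.0353), and Tm7sf2 rose by 0.44 ± 0.106 (adjusted p = 0.0277). Of the 16 fits that left out a library, Acat2 kept its call in 8 and Tm7sf2 in 11. The median difference was 0.53 for the sterol arm and 0.22 for the fatty acid arm, against 0.04 for all genes. Acat2 has a near-identical copy, Acat3, at 97.7% over 1477 bases.

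The count of members that separated KO vehicle from WT vehicle turned on 2 libraries. It was 20, all higher, without KO vehicle library 4, where 7.87% of all genes were higher. It was 15, all higher, without WT vehicle library 3, where 8.86% of all genes were higher. Leaving out any other library gave between 0 and 4. Without the 3 libraries apart in Col1a1 it was 22 higher and 2 lower, the lower ones being Scd1 and Elovl6, against 21% higher and 13% lower of all genes. With Col1a1 as a covariate it was 0, against 1.49% higher and 1.28% lower of all genes. Under 50 FPKM of Col1a1, WT vehicle kept library 3 alone, so no count is given there. The mean log2 level of the sterol arm was 3.17 to 3.28 in KO vehicle libraries 1 to 3 and 2.46 in library 4, against 2.88 in WT vehicle library 3 and 2.27 to 2.51 in the other WT vehicle libraries. Summed over 10 markers, stromal RNA ran from 2.08 to 290 FPKM in KO vehicle libraries and from 22.3 to 418 FPKM in WT vehicle libraries.

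In KO dexamethasone against WT dexamethasone, Tm7sf2 and Fads1 were higher and Srebf1, Scd1, Elovl6 and Fads2 were lower, which is 2 and 4 members against 14.3% higher and 12.4% lower of all genes. By limma, Scd1 fell by 2.58 ± 0.744 (log2, adjusted p = 0.0225), Fads2 by 1.66 ± 0.341 (adjusted p = 0.00427), Elovl6 by 0.44 ± 0.151 (adjusted p = 0.0458) and Srebf1 by 0.26 ± 0.0715 (adjusted p = 0.0201). Tm7sf2 rose by 0.32 ± 0.106 (adjusted p = 0.0373) and Fads1 by 0.25 ± 0.0796 (adjusted p = 0.0352). Of these 6, Fads2 alone kept its call whichever library was left out, and Elovl6 lost it in 12 of the 16 fits. Voom called 2 higher and 2 lower, against 12.2% and 10.4% of all genes. Its lower calls were 1 regulator and 1 fatty acid gene, so not all of Scd1, Elovl6 and Fads2.

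Stromal markers and Adipoq, an adipocyte hormone, were lower in KO dexamethasone against WT dexamethasone, as were Scd1, Elovl6 and Fads2. No relation of members to Adipoq was fitted. Of 8 tested stromal markers 7 were also lower in KO, and the 10 summed to 4.49 to 66.9 FPKM in KO dexamethasone libraries, against 48.5 to 822 FPKM in WT dexamethasone libraries. The 6 adipocyte markers summed to 0 to 0.0325 FPKM in KO dexamethasone libraries, against 1.21 to 17.2 FPKM in WT dexamethasone libraries. Adipoq made up most of the latter sum and was the only 1 of the 6 to pass the filter. In WT dexamethasone libraries Plin1, Cidec and Cfd reached at most 0.196, 0.261 and 0.0659 FPKM, and Lep and Pck1 were listed at 0. Adipoq fell by 2.82 on the log2 scale in KO against WT with dexamethasone (limma adjusted p = 0.00455). Their part in the result was not tested. With Col1a1 as a covariate 3 members were called in place of 6, against 3.78% higher and 3.64% lower of all genes. Under 50 FPKM of Col1a1, WT had 1 library per treatment, so no count is given there.

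**Figure D4:**
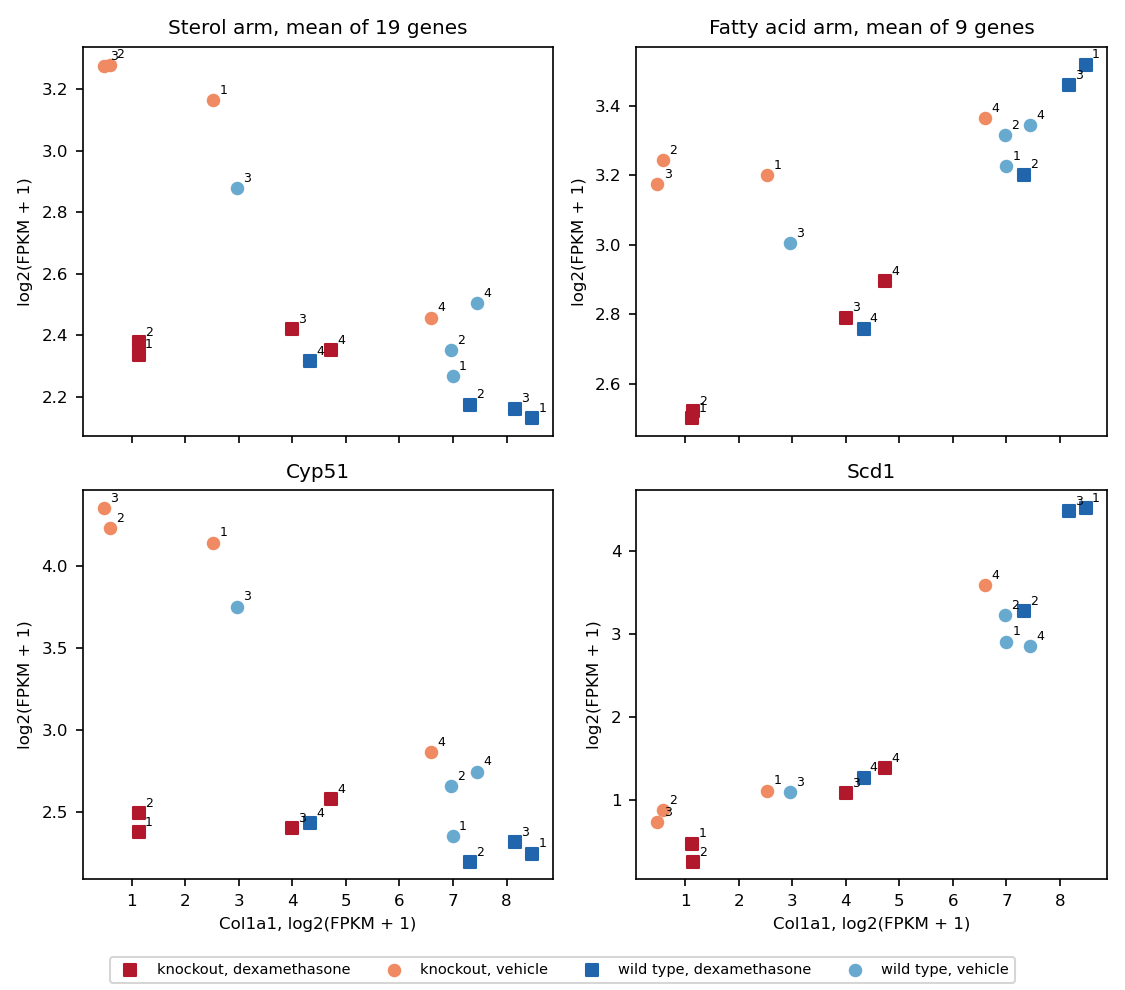
Mean log2(FPKM + 1) of the 19 tested sterol genes and of the 9 fatty acid genes, and the levels of Cyp51 and Scd1, against Col1a1 on the same scale in each library (numbers give the replicate; squares are dexamethasone and circles vehicle). In vehicle libraries the sterol mean is 3.17 to 3.28 in the 3 KO libraries low in Col1a1 and 2.88 in the low WT library, while dexamethasone libraries stay between 2.13 and 2.42.

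The relation to Col1a1 was fitted as a slope within groups, in log2 units of a member per log2 unit of Col1a1 FPKM + 1, beside the 4 group means. By limma 14 of 33 members had a negative slope and 3 a positive one, against 13.5% and 11.7% of the other 11653 genes tested. The negative ones were Srebf2, Insig1 and 12 of 19 sterol genes, with the steepest in Msmo1 at -0.17 ± 0.0333 (adjusted p = 0.00162), and the positive ones were Scd1 at 0.48 ± 0.0512 (adjusted p = 8.81e-06), Fads2 at 0.17 ± 0.045 (adjusted p = 0.0141) and Elovl6 at 0.07 ± 0.0202 (adjusted p = 0.0158). All 19 sterol slopes were below 0, as were 6867 of the 11653. Pmvk, Msmo1, Scd1 and Fads2 kept their calls whichever library was left out.

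Slopes were then fitted apart for each treatment, a choice made after the data were seen. In dexamethasone libraries 0 members had a negative slope that passed, and Scd1, Scd2, Elovl6 and Fads2 had positive ones, against 1.44% and 7.24% of all genes. At an unadjusted p under 0.05 it was 1 negative and 7 positive, where 2556 of 11653 genes passed in either direction. In vehicle libraries 17 members had negative slopes, 14 of them sterol genes, and Scd1 had a positive one, against 10.3% and 9.41% of all genes. The sterol arm median slope was -0.02 with dexamethasone and -0.12 with vehicle, and that of the fatty acid arm was 0.07 with dexamethasone and -0.02 with vehicle. The difference between both slopes passed the limma test for Sqle (0.24 ± 0.043, adjusted p = 0.0375) and Cyp51 (0.24 ± 0.0424, adjusted p = 0.0341), against 0.266% of all genes, and each lost that call in 11 of the 16 fits that left out a library.

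Most calls of these slopes rest on the libraries that lay apart. Without those 3, the shared slope, the slope in vehicle and the difference between slopes passed for 0 members. The shared slope of Msmo1 was then -0.04 ± 0.0382. Those of Scd1, Fads2 and Elovl6 stayed positive, at 0.29 ± 0.0714, 0.14 ± 0.0396 and 0.07 ± 0.0308 (limma adjusted p = 0.0581, 0.101 and 0.451). Of all genes, 2.77% had a positive and 0.129% a negative shared slope there. The vehicle slope passed for 0.112% and 0.0172%, and the difference for 0 genes. The slope with dexamethasone passed for Fads2 alone (0.19 ± 0.0311, limma adjusted p = 0.00535), where 2.39% of all genes had a positive one. What remained then was mainly the spread of KO dexamethasone libraries, where libraries 3 and 4 had 15 and 25.5 FPKM of Col1a1 and libraries 1 and 2 had 1.18 and 1.2 FPKM. Fads2 was 0.975 and 1.07 FPKM in the first pair and 0.303 and 0.311 FPKM in the second. Without KO vehicle library 4 alone, 2 negative and 4 positive shared slopes passed, against 6.54% and 10.5% of all genes. Of 7 other stromal markers, all had positive slopes that passed in vehicle and with dexamethasone, and of 6 proliferation markers 4 had negative ones in vehicle and 0 with dexamethasone.

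**Figure D5:**
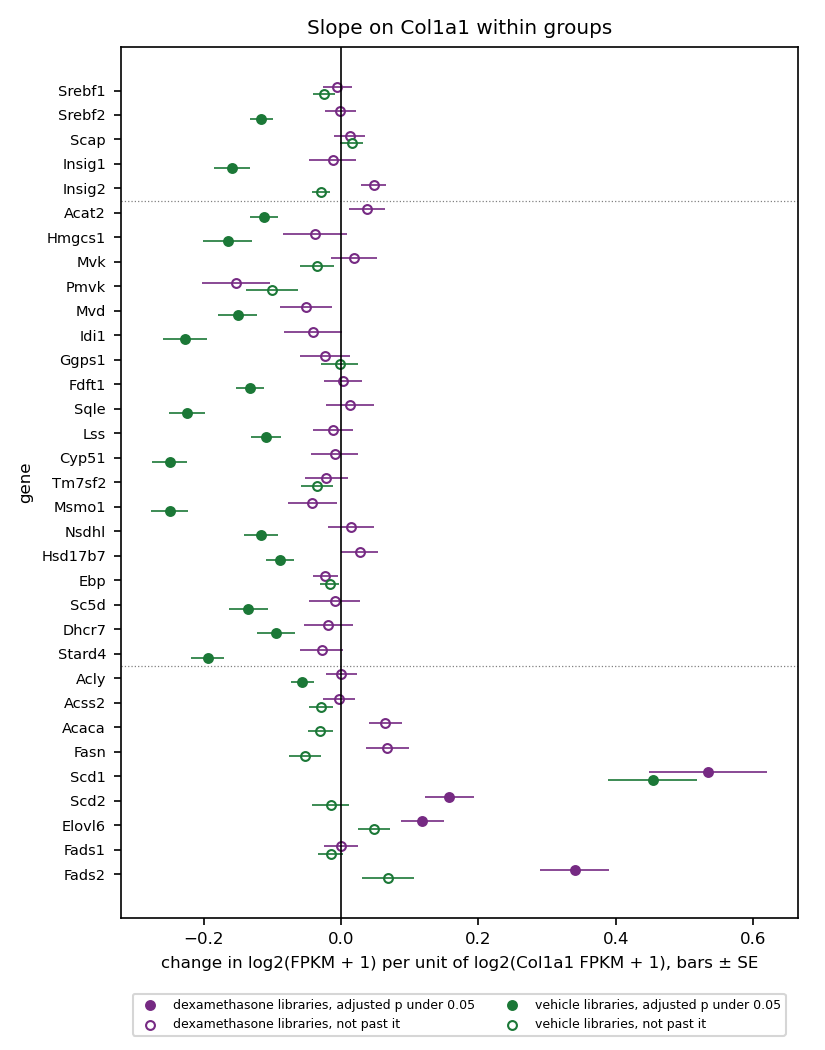
Slope of each of the 33 tested members (rows) on Col1a1 within groups, in log2 units per log2 unit, with its standard error, in dexamethasone and in vehicle libraries; filled points passed an adjusted p of 0.05 in limma. In vehicle libraries 14 sterol genes have negative slopes that passed, and with dexamethasone Scd1, Scd2, Elovl6 and Fads2 have positive ones.

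Other genes of the pathway were taken from a list of 28, of which 27 were tested. With dexamethasone in KO 12 were lower and 5 higher, and in WT 10 were lower and 5 higher, by limma. Of all genes tested, 24.1% were lower and 15% higher in KO, and 18.2% were lower and 11.9% higher in WT. Their median log2 difference was -0.16 in KO and -0.04 in WT.

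Lpin1, a phosphatidate phosphatase that also restrains SREBP activity, was among the higher ones. It had 10.9, 13, 10.5 and 11 FPKM in KO dexamethasone libraries, against 3.27, 3.25, 3.19 and 3.39 FPKM in KO vehicle libraries. WT libraries held Lpin1 at 11.5, 7.93, 10.3 and 13.2 FPKM with dexamethasone, against 3.45, 3.05, 3.13 and 3.89 FPKM with vehicle. Every dexamethasone library lay above every vehicle library. Lpin1 rose by 1.52 ± 0.113 in KO (log2, limma adjusted p = 1.73e-07) and by 1.40 ± 0.113 in WT (adjusted p = 5.82e-07).

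Mylip, a ubiquitin ligase induced by the sterol sensor LXR, rose with dexamethasone by 0.69 ± 0.108 in KO and 0.48 ± 0.108 in WT (log2, limma adjusted p = 0.000178 and 0.00399). Mid1ip1, which promotes acetyl-CoA carboxylase activity, fell by 1.12 ± 0.177 in KO and by 0.96 ± 0.177 in WT (adjusted p = 0.000187 and 0.000891). Nfya, the subunit of NF-Y that contacts the CCAAT box, fell by 0.45 ± 0.0655 in KO and by 0.42 ± 0.0655 in WT (adjusted p = 9.24e-05 and 0.000272). It stood at 14.9 to 15.9 FPKM in KO dexamethasone libraries and 18.7 to 23.3 FPKM in KO vehicle libraries, with 14.2 to 15.8 FPKM in WT dexamethasone libraries and 19.3 to 21.9 FPKM in WT vehicle libraries.

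Between genotypes, Mylip was the gene of this list that was lower in KO vehicle against WT vehicle, at -0.51 ± 0.108 (log2, limma adjusted p = 0.0136). In KO dexamethasone against WT dexamethasone, 4 genes of the list were lower and 1 higher, against 12.4% and 14.3% of all genes. The lower ones included 3 named here after their values were seen. Me1, the malic enzyme that supplies NADPH, fell by 1.32 ± 0.335 (adjusted p = 0.0129) and Mbtps1, the first protease that cuts SREBP, by 0.47 ± 0.103 (adjusted p = 0.00601). WT dexamethasone libraries held Me1 at 4.75, 5.66, 6.25 and 1.41 FPKM, and Mbtps1 at 14, 11.7, 14 and 10.2 FPKM. Library 4, low in Col1a1, was thus lowest for both. For Me1 it lay within the KO dexamethasone range of 0.638 to 1.62 FPKM. Nfyc, another NF-Y subunit, fell by 0.27 ± 0.0669 (adjusted p = 0.0108).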

How the data were processed

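RNA from 16 macrophage libraries was sequenced, and the authors deposited FPKM values per gene for each library. Bowtie2 2.2.3, TopHat2 2.0.12 and HTSeq 0.6.1 are named, along with the builds mm10 and GRCm38, per the submitters' processing notes; whether counting used strand, and which annotation, is not stated there. Symbols and exon lengths came from GENCODE M21, which named 54495 of 54532 identifiers. Reads were recovered from FPKM and exon length: 96.3% to 96.7% of positive values came out whole within 0.05 reads. Every within-group pair differed by more than counting noise, so no library was treated as deposited again; this does not show separate mice or cultures.

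Values were tested as log2(FPKM + 1), which understates changes of low genes, with limma 3.58.1 in R 4.3.3 (4 group means, intensity trend, two-sided). The 11654 genes that reached 1 FPKM in 4 or more libraries were kept, and p-values were adjusted by Benjamini-Hochberg over all of them (threshold 0.05). The steps were tested on simulated data. Python 3.11.15 with numpy 2.4.6, pandas 2.3.3 and matplotlib 3.10.9 did the rest, and blastn 2.17.0 found copies of at least 95% identity over 200 bases.

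The members and lists were chosen with earlier results of these data known. Values in every library are given for the 5 regulators, for up to 8 sterol and 5 fatty acid members with the steepest called change, and for members called in the interaction; from the other pathway genes, the rule names the 6 with the smallest adjusted p. Groups came from the sample labels. Alternatives were another pseudocount, filter, scaling and weighting, fits of the compared groups alone, a replicate block, Col1a1 as a covariate, subsets by Col1a1, voom on recovered reads, and each library left out. Some genes of the pathway are not reported here.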

Additional observations from a re-analysis of the deposited data

Results flagged for a closer look

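In 10 of the 136 groups of 4 libraries examined (34 genes in 4 groups), the highest or lowest library stood apart from the rest by a share of the group's whole range past Dixon's limit. Chance alone flags about 1 in 20 such groups. KO vehicle library 4, the one high in Col1a1, gave 4 of the 10. It was low for Insig1 (11.3 FPKM, share of the range 0.983), for Sqle (5.04 FPKM, 0.831) and for Acaca (2.6 FPKM, 0.957), and high for Scd1 (11 FPKM, 0.952). WT vehicle library 3, low in Col1a1, was high for Idi1 (3.34 FPKM, 0.884), and WT dexamethasone library 4, also low in Col1a1, was high for Pmvk (20.5 FPKM, 0.895).

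The other 4 were in dexamethasone libraries, whose Col1a1 in KO ran from 1.18 FPKM in library 1 up to 25.5 FPKM in library 4. KO dexamethasone library 4 was low for Ebp (20.2 FPKM, 0.914) and high for Acaca (2.71 FPKM, 0.837). KO dexamethasone library 1 was low for Fads1 (46.8 FPKM, 0.850), and WT dexamethasone library 2 was low for Acly (31.3 FPKM, 0.873).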

How the results depend on the processing

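Members called in KO dexamethasone against KO vehicle stayed within 1.5 times of the 25 under every setting tried, and 18 to 26 when a library was left out. Elsewhere counts moved, and the cause was not tested. Counts follow for WT with dexamethasone against vehicle (6 members), KO against WT with vehicle (2), KO against WT with dexamethasone (6) and the interaction (0). Without the filter on low values the first 3 were 3, 0 and 2. All-gene shares there were 5.04% higher and 6.6% lower, 0.936% and 0.468%, and 4.59% and 4.68%. With array weights the 4 counts were 10, 27, 15 and 19. In the same order, 16.8% of all genes were then higher and 23.3% lower, 26.5% and 15.1%, 30.9% and 23.9%, and 4.66% and 7.28%. Without the 3 libraries apart in Col1a1 the 4 counts were 12, 24, 15 and 15. Shares of all genes were 13.1% higher and 20.4% lower, 21% and 13%, 25.5% and 18.8%, and 2.28% and 3.94%. With Col1a1 as a covariate the last 3 were 0, 3 and 1. Of all genes, 1.49% were then higher and 1.28% lower, 3.78% and 3.64%, and 0.283% and 0.309%. No counts are given for libraries under 50 FPKM of Col1a1, where WT had 1 library per treatment. For KO against WT with vehicle, the filter of 5 FPKM gave 1, where 4.91% of all genes were higher and 1.34% lower. The fit of those 2 groups alone gave 0, against 1.42% and 0.678%. Leaving out a library gave 3 to 9, 0 to 20, 1 to 8 and 0 to 4. The shared Col1a1 slope passed for 17 members (6 to 19 leaving out a library). Without the 3 libraries it passed for 0, against 2.77% positive and 0.129% negative of all genes. There the vehicle slope passed for 0.112% and 0.0172% of all genes, and the difference between slopes for 0. Separate slopes, added after the data were seen, passed for 18 in vehicle (7 to 20; 0 without the 3) and 4 with dexamethasone (1 to 5; 1 without the 3), and their difference for 2 (0 to 4; 0 without the 3 and with quantile normalization).

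Same-numbered libraries of a genotype deviated together in 2 of 4 KO pairs and 2 of 4 WT pairs (correlation over 0.1). These deviations include those of the 3 libraries apart in Col1a1, so whether the numbers pair the samples stays undecided. With the replicate block, KO against WT with vehicle gave 0 members, where 2.18% of all genes were higher and 1.06% lower. The sterol arm median log2 difference became -0.51 in WT with dexamethasone (under 50 FPKM of Col1a1), 0.29 in KO against WT with vehicle and -0.22 with dexamethasone (covariate), and -0.66 in the interaction (without the 3 libraries). Leaving out a library, it ranged over -0.30 to -0.15 in WT with dexamethasone, -0.76 to -0.46 in KO, 0.42 to 0.70 in KO against WT with vehicle, 0.11 to 0.21 with dexamethasone and -0.61 to -0.24 in the interaction. Of the shared slopes that passed, those that turned positive without the 3 libraries were Srebf2 (0.0064), Insig1 (0.005), Hmgcs1 (0.0122), Lss (0.0127), Cyp51 (0.0119), Sc5d (0.0242) and Dhcr7 (0.0535). Under 50 FPKM those were Hmgcs1 (0.0209), Lss (0.0127), Cyp51 (0.0039), Sc5d (0.0295) and Dhcr7 (0.037). Sterol slopes that had not passed also turned positive without the 3 libraries, in Nsdhl (0.0198), Hsd17b7 (0.0079), Mvk (0.0070) and Tm7sf2 (0.0002). Elovl6 in KO against WT with dexamethasone turned to 0.0403 under 50 FPKM, where WT had 1 library per treatment, whose spread was taken as that of the other groups. Apart from the called values that reversed, 5036 values of single members kept their side of the threshold, 208 passed it anew and 227 no longer did. Fdps, at 0.0433 to 0.387 FPKM, rests on few reads.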
